A study of Arabidopsis thaliana with 8 samples.

Results

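The transcripts described here had a lower signal in Arabidopsis thaliana roots after 20 min of nitrate than after a control salt. A fall means this difference throughout, since no array was taken before the treatment. Signals were compared as log2(signal + 16), and for dim transcripts this scale gives changes that are too small. A probe set (the set of probes that measures 1 transcript or a few related ones on the array) was a member when its mean signal over the 8 arrays exceeded 33.3 and its mean log2 value fell by 0.7 or more in nitrate against the control in roots. In addition, both root nitrate arrays had to lie below both root control arrays. A block of plastid-encoded probe sets and 3 further probe sets were left out beforehand, which removed 1 that would have passed. The rule took 146 of the 13647 probe sets tested and of the 22746 measured. Members were thus chosen by the difference between the root nitrate and root KCl signals, so their root values are a description and carry no test. Of the members, 83 match 1 gene in the platform's probe annotation, 1 matches several and 62 are not listed and stay unnamed.

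All samples were wild-type Col-0 seedlings 10 days old, grown in shaken liquid culture under constant light, with the shoots held above the medium. For 20 min they were given potassium nitrate at 250 µM, while control seedlings were given potassium chloride (KCl) at the same concentration, and roots and shoots were profiled separately on one-colour Affymetrix ATH1 arrays. Both treatments in both organs make 4 groups, each of which held 2 arrays, numbered 1 and 2, and their number limits the precision. Many seedlings shared a culture vessel, and what the numbers stand for is not stated, so p-values measure a spread between arrays that may be technical. Organ markers separated as labelled: RCA (Rubisco activase, of green tissue) had root signals of 115 and 171 and shoot signals of 4194 and 2492 in KCl, and EXPA7 (a root hair expansin) had 129.7 and 176 in roots and 25.4 and 8.63 in shoots. Of the marker lists, 2 of 6 root hair genes, 1 of 6 root tip genes, 1 of 10 green shoot genes and 0 of 11 endodermis and stele genes were tested. In whole organs, a smaller share of cells with a transcript and less of it per cell cannot be told apart.

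Nitrate is both a nutrient and a signal for plants. It is sensed at the root surface and in the cell, and within minutes it switches on genes of its own uptake, reduction and assimilation. Other transcripts go down, for example through repressors that nitrate induces. How the members came to be lower was not tested. AP2/ERF and WRKY proteins are large plant families of transcription factors that act in hormone and stress responses.

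The 146 members had a median log2 change of -0.84 in roots, between -1.57 and -0.70, and the median ratio of mean root signals (KCl over nitrate) was 2.06. In 35 members the fall was at least 1 on the log2 scale, in 55 it lay between 0.8 and 1, and in 56 it was smaller. Their median signal was 151 and 137 on the root KCl arrays and 67.2 and 67.9 on the root nitrate arrays, while the medians of all tested probe sets on these arrays lay between 95.8 and 99.2. In the opposite direction, the same rule would have taken 305 probe sets.

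The largest fall of a named gene belonged to AT4G17670, which encodes a small zinc finger protein of the FLZ family. Its root signals were 614 and 589 in KCl and 197 and 186 after nitrate, a log2 change of -1.57, and they differed little within each treatment. The unlisted probe set 254562_at fell as far (-1.57), with root signals of 181 and 128 in KCl and 43.7 and 37.6 after nitrate. AT5G10770, of the aspartyl protease family, had root signals of 291 and 308 in KCl and 60.4 and 139 after nitrate (-1.53), so that its 2 nitrate arrays stood further apart than its KCl arrays. AT4G10270, of a small family of wound-responsive proteins, had 337 and 174 in KCl and 87.7 and 72.8 after nitrate (-1.43), and AT5G10040 had 294 and 187 in KCl and 120.3 and 49.8 after nitrate (-1.41). In both, the array numbered 1 was the higher one in each treatment.

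**Figure D1:**
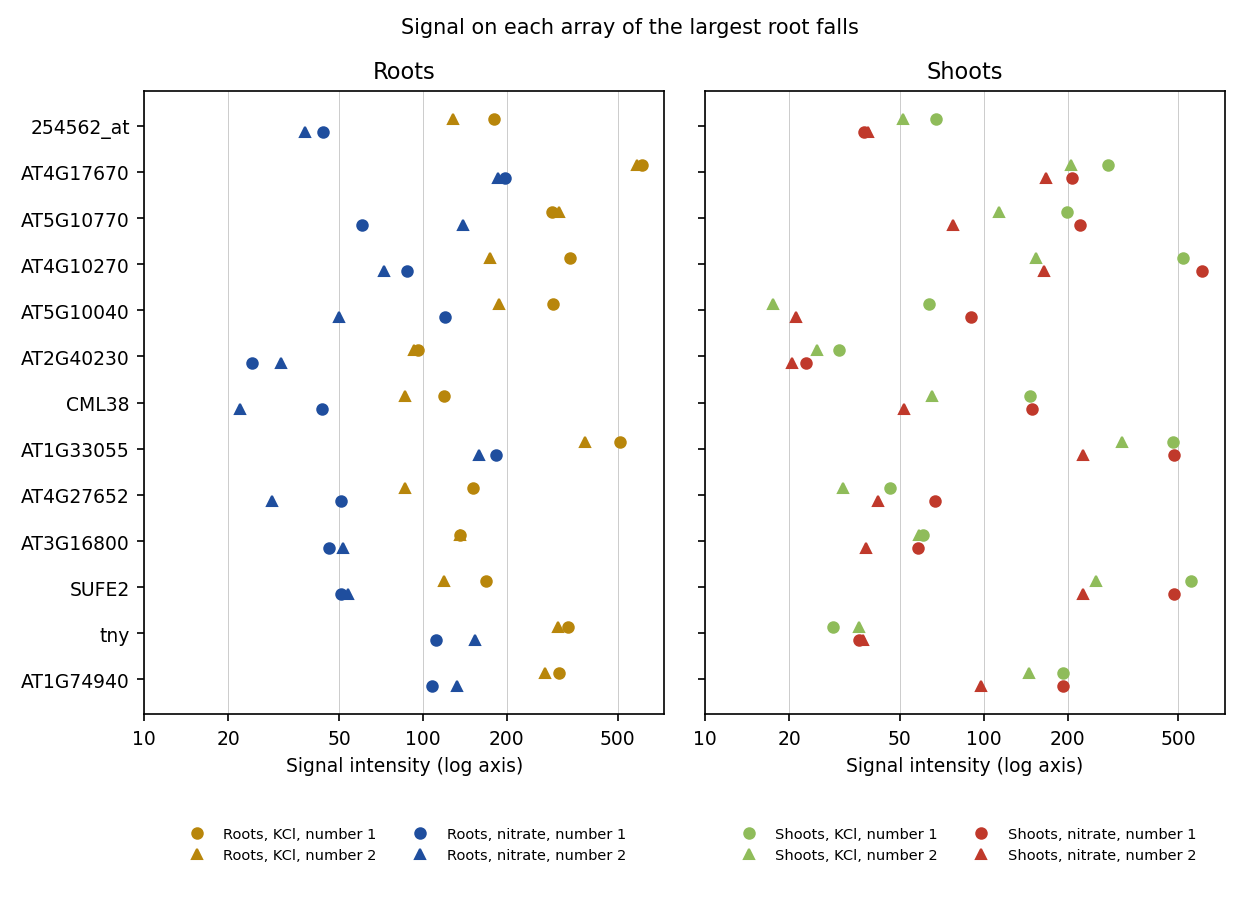
Signal intensity (log axis) on each root array (left) and shoot array (right) for the 12 named members with the largest root falls and 254562_at, ordered by their root change. Circles are arrays numbered 1 and triangles arrays numbered 2; in roots the nitrate arrays lie left of the KCl arrays for each member, as the rule requires, and in shoots the treatments lie closer together.

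The next named genes ran from a log2 change of -1.34 to -1.18. AT2G40230, an acyltransferase of the HXXXD type, had root signals of 96.3 and 92.8 in KCl and 24.4 and 30.9 after nitrate. CML38, a calmodulin-like calcium sensor, had 119 and 86.2 in KCl and 43.3 and 22.1 after nitrate. AT1G33055 had 509 and 381 in KCl and 183 and 158 after nitrate, and AT3G16800, a type 2C protein phosphatase, had 135 and 136 in KCl and 46.0 and 51.8 after nitrate. SUFE2, which activates the desulfurase that feeds iron-sulfur cluster assembly in plastids, had 168 and 119 in KCl and 51.0 and 53.7 after nitrate. AT4G27652 had 152 and 86.5 in KCl and 50.8 and 28.7 after nitrate. In these 6, as in every member by the rule, the lower KCl array exceeded the higher nitrate array.

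Transcription factor genes made up 10 of the 83 named members, a share that was not set against their share of tested genes. The families given here were assembled after the values were seen and carry no test. The AP2/ERF family had 3: tny (TINY, of the DREB group, which binds dehydration response elements), AT2G44940 of the same group and AT2G33710 of the ERF group. The root signals of tny were 331 and 306 in KCl and 111 and 154 after nitrate (-1.19), those of AT2G44940 243 and 263 in KCl and 119 and 137 after nitrate (-0.90) and those of AT2G33710 80.1 and 73.8 in KCl and 27.7 and 37.9 after nitrate (-0.94). As the rule requires, the groups did not overlap in any of them, and for tny the nitrate arrays differed more than the KCl arrays.

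WRKY6, a regulator of phosphate starvation and senescence, had root signals of 139.9 and 97.7 in KCl and 65.5 and 61.8 after nitrate (-0.74). WRKY53, a promoter of leaf senescence, had 44.2 and 42.3 in KCl and 19.2 and 19.7 after nitrate (-0.74), low levels that fell alike on both numbers. AT3G10040 (HRA1, a trihelix factor that restrains the low oxygen response) had 50.7 and 73.1 in KCl and 18.5 and 26.3 after nitrate (-1.01). MYBC1 (a MYB-like factor linked to freezing tolerance) had 203 and 201 in KCl and 121 and 76.2 after nitrate (-0.95) and AT4G17900, a PLATZ-type zinc-binding factor, had 491 and 450.5 in KCl and 214 and 277 after nitrate (-0.90). AT1G29160, a Dof zinc finger factor, had 105 and 106 in KCl and 53.1 and 60.8 after nitrate (-0.74). NAI1, the bHLH factor needed for endoplasmic reticulum bodies, had 277 and 292 in KCl and 159.6 and 176 after nitrate (-0.71). NAI1 thus fell least among the 10, with KCl arrays close to each other.

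Genes of other families were also among the members, and their counts were not set against the number tested in each family. The FLZ proteins, which act as scaffolds for the energy-sensing kinase SnRK1, had 3 members. Besides AT4G17670 these were AT1G74940, with root signals of 309 and 274 in KCl and 108 and 132 after nitrate, and AT5G47060, with 310.2 and 289 in KCl and 152 and 126 after nitrate. The cysteine-rich C1 domain family had 3 (AT2G44380, AT2G02610 and AT1G44050), with log2 changes down to -1.0 in AT2G44380 and of -0.72 in AT1G44050. The UDP-glycosyltransferases, which attach sugars to hormones and other small molecules, had 3 (UGT72B3, GT72B1 and AT5G05890), between -0.85 and -0.74. The calmodulin-like genes CML38 and CML23 had -1.30 and -0.82. Growth and transport genes included ARL (ARGOS-like, which promotes cell expansion), at 293 and 222 in KCl and 125 and 97.1 after nitrate, and AZG1 (a purine transporter), at 90.9 and 98.9 in KCl and 48.5 and 49.3 after nitrate.

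Some families could also be drawn from gene symbols alone, whether or not their genes are members. Of 5 tested WRKY genes, 4 had a negative root change, with a median of -0.57, and of 4 tested CML genes all 4 did, with a median of -0.62. Of 26 tested UGT genes 16 did, with a median of -0.16. Among all tested probe sets 58.1% had a negative root change and the median was -0.033. These root values include the contrast that chose the members, and nothing is read from them.

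The rule fixes the direction on each replicate number, since both nitrate arrays had to lie below both KCl arrays, so only the sizes are described here. Between arrays numbered 1 the median log2 change was -0.92 (from -2.03 to -0.27), and between arrays numbered 2 it was -0.85 (from -1.62 to -0.027). The fall was larger on number 1 for 91 members and on number 2 for 55. The 2 numbers differed most for the unlisted probe set 253140_at, chosen after its values were seen, with root signals of 77.9 and 50.2 in KCl and 7.06 and 49.0 after nitrate: here the fall rests on the arrays numbered 1. At the threshold, the last members were AT1G10020 (-0.7066), 245173_at (-0.7051) and 248545_at (-0.7021). Just outside it were 260053_at (-0.6999), AT4G37240 (-0.6984) and AT3G19680 (-0.6984), so the threshold cuts a continuous range.

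**Figure D2:**
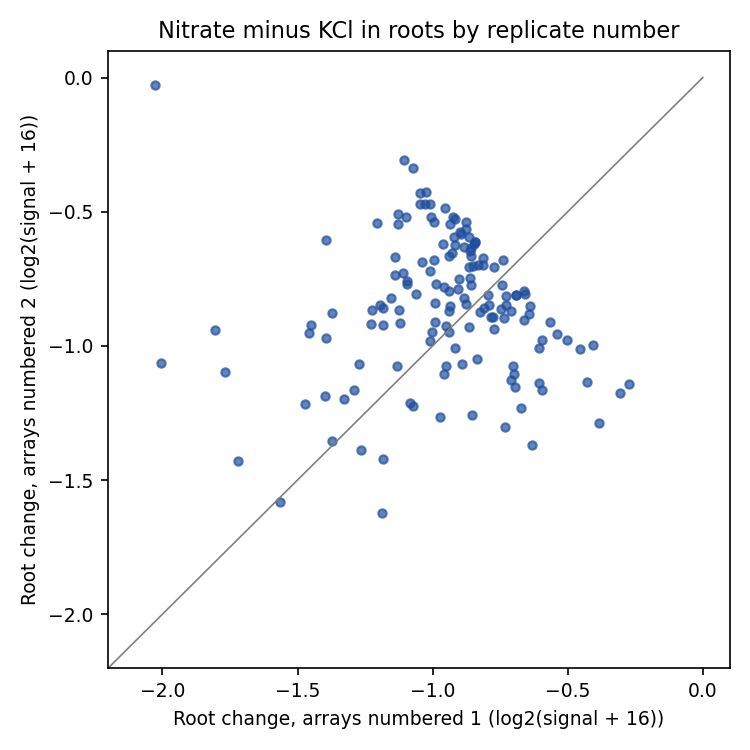
Change of each of the 146 members in roots, nitrate minus KCl on the log2(signal + 16) scale, between the arrays numbered 1 (horizontal) and numbered 2 (vertical), with the line of equal change. All points lie below 0 on both axes, and 91 members fell more on the arrays numbered 1.

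Low signals limit some members. Mean root signals after nitrate were under the filter value of 33.3 in 35 members, and 5 members were under it in KCl as well. An example is AT1G23130 (of the Bet v 1-like family), with root signals of 11.4 and 29.6 in KCl and 1.97 and 4.73 after nitrate beside shoot signals of 2623 and 1335 in KCl. On the contrast that the rule used, limma called 0.103% of all tested probe sets lower in roots, and 1.43% with a term for the replicate number within each organ. These shares describe the whole table and are no test of the members.

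The shoot arrays took no part in the choice, apart from the filter on the mean. In shoots the members leaned the same way by much less: 109 of 146 had a negative log2 change (74.7%), where 53.0% of tested probe sets did. Their median shoot change was -0.19, against -0.013 for all tested probe sets, and each member's shoot change was less negative than its change in roots, the organ it was chosen in. The shoot change was -0.5 or lower in 10 members (6.85%), where 1.11% of tested probe sets were, and 0.5 or higher in 3 (2.05%), where 2.25% were. Both shoot nitrate arrays lay below both KCl arrays for 36 members (24.7%), where 11.0% of tested probe sets did, and above them for 4 (2.74%), where 8.91% did. No member passed the test in shoots (limma, adjusted p under 0.05), where 0.0% of tested probe sets were called lower and 0.0953% higher. With the replicate number as a term within each organ there were also 0, where 0.0293% were called lower and 0.572% higher. At an unadjusted p under 0.05 there were 7 lower members, where 0.813% of tested probe sets were, and 1 higher, where 1.55% were.

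The shoot values were also taken within each replicate number and with 1 array left out. Between the shoot arrays numbered 1 the median change of the members was -0.17, against -0.016 for all tested probe sets. Between those numbered 2 it was -0.21, against -0.010. The change was negative on both numbers for 77 members, where 27.9% of tested probe sets were, positive on both for 14, where 23.5% were, and mixed for 55. Without the first shoot KCl array 81 members (55.5%) had a negative change, where 55.8% of tested probe sets did. Without the second shoot nitrate array 76 (52.1%) did, where 54.6% did. In both cases the members' share was no higher than that of all tested probe sets. Without the second KCl array 108 members (74.0%) had a negative change, where 48.9% of tested probe sets did. Without the first nitrate array 117 (80.1%) did, where 47.7% did. With any of these 4 arrays left out, the treatments no longer hold the same replicate numbers.

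**Figure D3:**
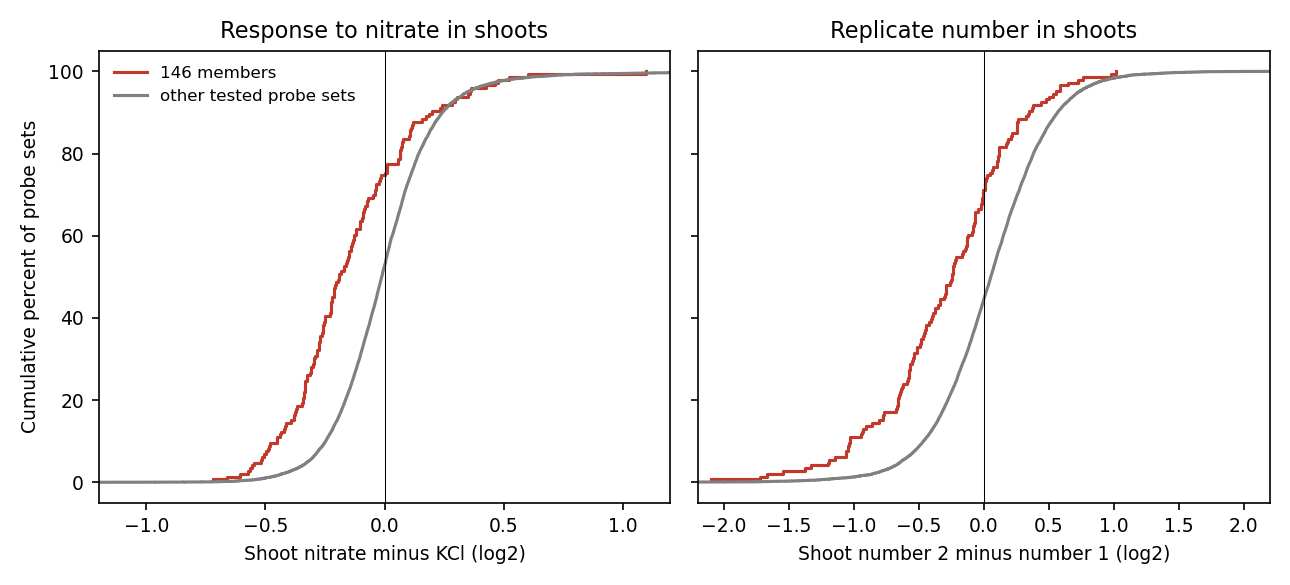
Cumulative percent of probe sets against the shoot change, nitrate minus KCl (left), and against the shoot difference of arrays numbered 2 minus numbered 1 (right), both in log2, for the 146 members and the other tested probe sets. The members' curve lies left of the other curve over most of both ranges, with medians of -0.19 (left) and -0.25 (right).

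The lowest shoot changes of named members were -0.72 ± 0.37 (SE) for AT3G22970, -0.61 ± 0.17 for SGP1, -0.56 ± 0.17 for AT2G44940, -0.51 ± 0.21 for AT2G36950 and -0.51 ± 0.29 for AT4G33040. These SEs come from the fit without a term for the replicate number. With that term within each organ they were 0.14, 0.14, 0.14, 0.13 and 0.13 in the same order. AT3G22970, of the DUF506 family, had shoot signals of 237 and 319.5 in KCl and 114 and 224 after nitrate. It was the only member that would also pass the rule in shoots, where the rule took 17 probe sets: the shared probe set is 0.685% of the members and 5.88% of those 17. SGP1, a small GTP-binding protein, had shoot signals of 84.1 and 86.6 in KCl and 43.7 and 58.2 after nitrate. The DREB factor AT2G44940 had 106 and 94.6 in KCl and 56.2 and 70.8 after nitrate. In these 3 the nitrate arrays lay below the KCl arrays. AT2G36950, a heavy-metal-associated protein, had 621 and 410.0 in KCl and 372 and 328 after nitrate, and AT4G33040, of the glutaredoxin family, had 549.6 and 293 in KCl and 320.3 and 242 after nitrate. The treatments did not overlap for AT2G36950 and overlapped for AT4G33040, and none of the 5 passed the test.

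Among the members with the largest root falls, 254562_at had shoot signals of 67.6 and 51.4 in KCl and 37.2 and 38.3 after nitrate, a log2 change of -0.48 ± 0.21 (SE), with both nitrate arrays below both KCl arrays. The shoot signals of tny were 28.8 and 35.7 in KCl and 35.6 and 36.7 after nitrate, a change of 0.12 ± 0.19, and its treatments overlapped. The highest shoot changes were 1.1 ± 0.52 for AT2G20670 (DUF506 family), 0.60 ± 0.37 for AT1G23390 (a Kelch repeat F-box protein), 0.52 ± 0.20 for AT5G05890, 0.48 ± 0.37 for AT5G60680 and 0.46 ± 0.24 for AT2G33710. With a term for the replicate number within each organ these SEs were 0.46, 0.26, 0.19, 0.14 and 0.23 in the same order. For 254562_at and tny they were 0.16 and 0.16. AT2G20670 had shoot signals of 15.7 and 42.3 in KCl and 154 and 33.9 after nitrate, AT1G23390 had 109.6 and 114 in KCl and 292 and 106 after nitrate and AT5G60680 had 185 and 109.8 in KCl and 319.6 and 130.1 after nitrate. In these 3 the first nitrate array stood above the other 3 shoot arrays, and without it the changes of AT2G20670, AT1G23390 and AT5G60680 were 0.21, -0.065 and -0.12.

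Levels in the organs were compared over both treatments, and the choice in roots bears on this average. A fall large enough for the rule needs a sufficient root signal in KCl. In roots, the members' median of mean signals was 141.7 in KCl, against 98.7 for all tested probe sets. After nitrate it was 69.6, against 96.8. How much of the share higher in roots follows from the choice was not tested. The filter on the mean signal admits a transcript that is low in roots only if it is high in shoots, and the reverse. Of the members, 56 were higher in roots (38.4%), where 26.8% of tested probe sets were, and 45 were higher in shoots (30.8%), where 24.1% were (limma, adjusted p under 0.05). The mean signal was under the filter value in roots for 18 members and in shoots for 17, and their organ difference follows from how they were admitted. Among the 111 members above that value in both organs, an alternative chosen after seeing the data, 41 were higher in roots (36.9%), where 24.9% of such tested probe sets were, and 29 in shoots (26.1%), where 18.8% were.

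The largest difference on the root side belonged to AT1G64590, a short-chain dehydrogenase, at 4.19 ± 0.15 in log2 units (SE, with an adjusted p from limma of 2.23e-07). Its root signals were 1563 and 1896 in KCl and 821 and 935 after nitrate, and its shoot signals were 75.5 and 49.8 in KCl and 48.0 and 39.7 after nitrate. AT5G61340 had 2.24 ± 0.13 (adjusted p = 2.17e-06). Among the AP2/ERF members, tny was higher in roots by 2.14 ± 0.13 (adjusted p = 3.03e-06) and AT2G44940 by 1.03 ± 0.12 (adjusted p = 0.000127). The bHLH gene NAI1 was higher in roots by 2.00 ± 0.11 (adjusted p = 1.37e-06). The shoot mean of AT2G33710 and of the 3 C1 domain genes lay under the filter value. For AT2G44380, the C1 domain gene with the largest root fall, the root signals were 279 and 156 in KCl and 96.2 and 97.1 after nitrate and the shoot signals 22.3 and 20.0 in KCl and 18.9 and 8.76 after nitrate.

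On the shoot side, the lowest values of roots minus shoots among named members belonged to AT1G23130, AT5G21100 (of the ascorbate oxidase family) and AT2G25735. Their root means lay under the filter value, so that they passed it through shoots, and no test is given for them. AT1G23130, with the signals given above, lies near the floor in roots. AT5G21100 had root signals of 38.5 and 32.5 in KCl and 25.8 and 3.86 after nitrate and shoot signals of 240.5 and 255 in KCl and 154 and 241 after nitrate. AT2G25735 had root signals of 25.6 and 24.0 in KCl and 7.16 and 10.1 after nitrate and shoot signals of 216 and 82.5 in KCl and 216 and 48.3 after nitrate. SUFE2 was higher in shoots from root signals above that value (168 and 119 in KCl and 51.0 and 53.7 after nitrate), at -1.83 ± 0.29 for roots minus shoots (SE; limma, adjusted p = 0.000781).

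**Figure D4:**
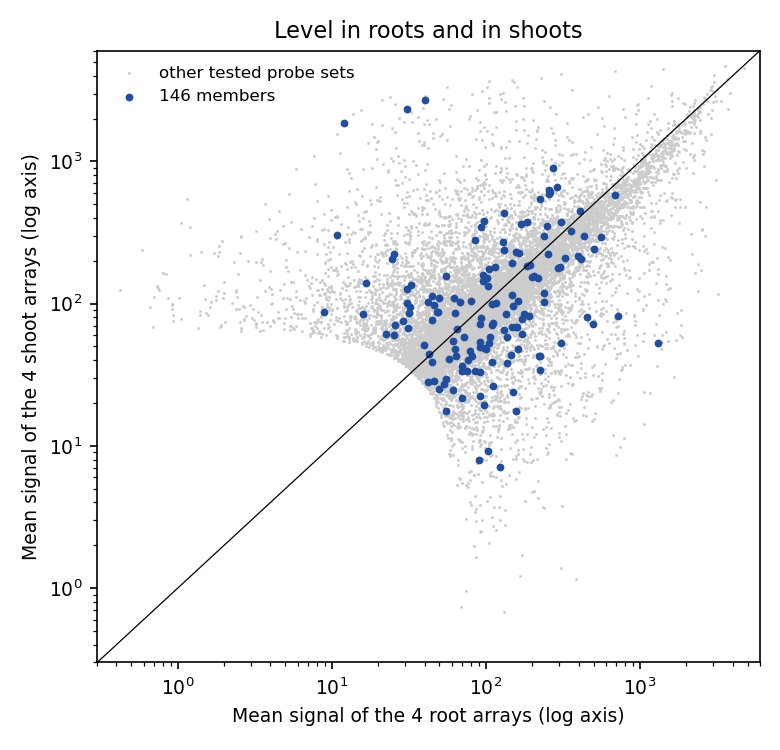
Mean signal of the 4 shoot arrays against the mean signal of the 4 root arrays (both log axes) for the 146 members and the other tested probe sets, with the line of equal signal. Members lie on both sides of the line, 56 of them higher in roots and 45 higher in shoots by the test.

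The shoot arrays of the 2 replicate numbers differed for many members. With a term for the number within each organ, 46 members were lower on the shoot arrays numbered 2 (31.5%), where 11.7% of tested probe sets were, and 9 were higher (6.16%), where 14.9% were (limma, adjusted p under 0.05). With a term shared by both organs, 8 members were called lower on number 2 (5.5%), where 1.1% of tested probe sets were, and 2 higher (1.4%), where 1.8% were. The median difference, number 2 minus number 1, was -0.25 for the members and 0.050 for all tested probe sets. In roots the members' median was -0.038, and 81 of 146 were lower on number 2, where 50.0% of tested probe sets were. The rule limits this root difference because it asks for arrays that do not overlap. Which step of the work the number stands for is not stated, and what moves with it was not tested.

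AT2G17850, a rhodanese-like sulfurtransferase, had the largest such difference among named members, -2.10 ± 0.12 (SE; limma, adjusted p = 1.71e-05). Its shoot signals were 345 and 76.9 in KCl and 357 and 63.1 after nitrate, and its root signals were 570.4 and 293 in KCl and 288 and 147 after nitrate. The array numbered 1 was the higher one in each of the 4 groups, by more in shoots than in roots. AT4G10270 had -1.72 ± 0.15 (adjusted p = 0.000214), with shoot signals of 520.4 and 154 in KCl and 608 and 165 after nitrate. AT4G36500 had -1.67 ± 0.13 (adjusted p = 0.000116), with 847 and 251 in KCl and 838 and 258 after nitrate. The shoot nitrate and KCl arrays of the same number lay close together in both. WRKY6 and WRKY53 were lower on number 2 as well, at -0.95 ± 0.16 (adjusted p = 0.00329) and -1.06 ± 0.17 (adjusted p = 0.00258), and so were all 3 FLZ genes. In the other direction stood AT1G10020 at 1.02 ± 0.18 (adjusted p = 0.00395), AT4G17080 at 0.73 ± 0.21 (adjusted p = 0.0307) and AT3G22970 at 0.64 ± 0.14 (adjusted p = 0.00858).

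Several members are known for induction by low oxygen, a response that ERF factors of group VII switch on when their breakdown by oxygen stops. A list of 51 such genes was written from general knowledge after the members had been seen, so it carries no test and supports nothing. The probe table names 27 of them and 25 were tested. Members numbered 13: AT4G17670, AT4G10270, AT5G10040, CML38, AT1G33055, AT1G74940, AT5G47060, AT4G33560, AT3G10040, AT4G24110, AT2G17850, AT3G23170 and AT1G26270. The other 12 tested genes of the list also had negative root changes, between -1.02 and -0.075. Over the 25 the median root change was -0.87, against -0.033 for all tested probe sets. The 13 members among them were chosen by this change, so nothing is read from the difference.

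Of the 12 genes outside the members, 3 are given as examples, picked after their values were seen. PDC2, a pyruvate decarboxylase of ethanol fermentation, had root signals of 925 and 632 in KCl and 632 and 505 after nitrate (-0.43). AT4G27450, among the brightest on the list, had 2101 and 1754 in KCl and 1606 and 1334 after nitrate (-0.39), and its groups did not overlap. AT4G39675 fell by more than the threshold (-1.02), but its root signals of 899 and 234 in KCl and 398 and 118 after nitrate overlapped between treatments, so the rule left it out. The arrays numbered 1 were the higher ones in each treatment for all 3. Of all 12, 8 were lower on number 2 in roots over both treatments.

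In shoots, 17 of the 25 had a negative change with nitrate, where 53.0% of tested probe sets did. Their median was -0.11, against -0.013 for all tested probe sets, and none was called by limma. For the 13 members the median was -0.21 and for the other 12 it was 0.029. By the counts called, the list differed more between replicate numbers than between treatments there, as all tested probe sets did. These counts come from different fits, since the fit for the treatments had no term for the number. With that term within each organ, 0.0293% of tested probe sets were called lower after nitrate and 0.572% higher. Of the 25, 17 were lower on the shoot arrays numbered 2 and 2 were higher (limma, adjusted p under 0.05). Of all tested probe sets 11.7% were lower and 14.9% higher. The median difference was -0.62 for the list, against 0.050 for all tested probe sets. Among the 13 members 10 were called lower and none higher. Of the 70 members that match 1 gene and are not on the list, 18 (25.7%) were called lower; unlisted probe sets cannot be set against it. CML38 had shoot signals of 147 and 65.1 in KCl and 149 and 51.7 after nitrate, AT5G10040 had 63.5 and 17.6 in KCl and 90.0 and 21.2 after nitrate and AT4G24110 had 145 and 56.8 in KCl and 98.2 and 44.6 after nitrate. In these 3, picked after their values were seen, the arrays numbered 1 exceeded those numbered 2 in each group of both organs. In roots 9 of the 13 were lower on number 2, and AT3G10040, AT3G23170 and AT1G26270 were among the other 4.

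**Figure D5:**
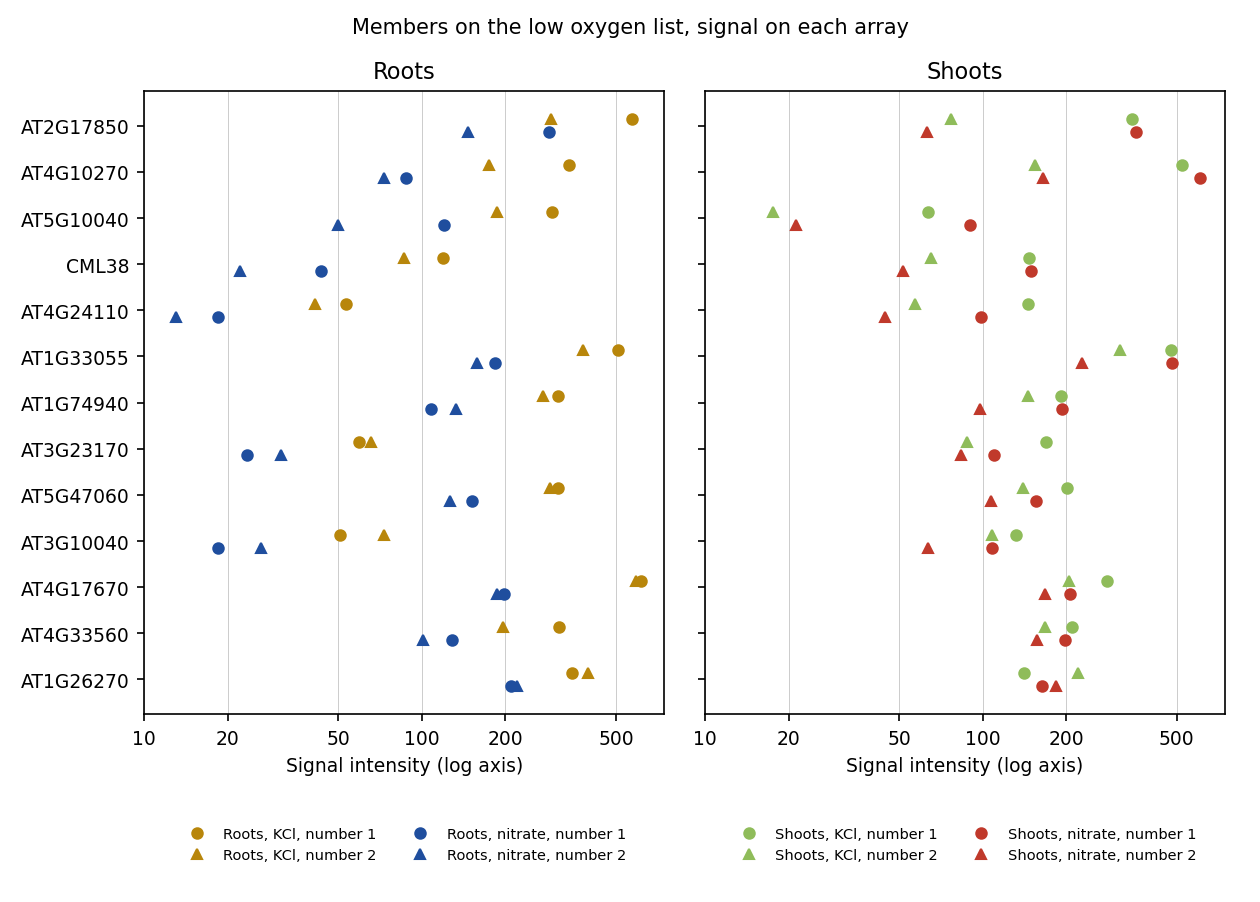
Signal intensity (log axis) on each root array (left) and shoot array (right) for the 13 members on the low oxygen list, ordered by their shoot difference between replicate numbers. Circles are arrays numbered 1 and triangles arrays numbered 2: in roots colours (treatments) separate, and in shoots the number separates the upper genes more than treatment does.

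Further lists of related pathways were written with earlier results of these data known, and the probe table covers them thinly. In the DREB list of 26 genes 4 were tested, of which 2 are members. AT3G60490 had root signals of 100.4 and 63.0 in KCl and 62.4 and 36.7 after nitrate (-0.58), and AT4G16750 had 31.2 and 46.9 in KCl and 40.6 and 28.9 after nitrate (-0.11). None of the 4 was called in shoots. In the list of 13 gibberellin genes 3 were tested, the receptors GID1A, GID1B and GID1C. Their root changes were -0.43, -0.69 and -0.29, and GID1B, with root signals of 189 and 244 in KCl and 107 and 151 after nitrate, missed the rule's threshold narrowly. Their shoot changes were -0.16, -0.33 and -0.13, none of them called.

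In the auxin list of 16 genes 3 were tested, and WES1 (GH3.5, which conjugates auxin to amino acids) had root signals of 189 and 221 in KCl and 111 and 149 after nitrate (-0.61). In the list of 24 genes of jasmonate, wounding and touch 2 were tested, the member WRKY53 and STZ (a zinc finger repressor), which had 127 and 54.0 in KCl and 75.1 and 68.2 after nitrate (-0.19) and overlapped between treatments. Abscisic acid responses had 2 tested genes of 15: COR47 (-0.13) and LTI30, a dehydrin, with root signals of 618 and 635 in KCl and 447 and 442 after nitrate (-0.48). Nitrogen starvation had 2 of 22, NRT2.5 (a high-affinity nitrate transporter, -0.45) and AT1G68570 (0.096). The root signals of NRT2.5 were 159.9 and 131 in KCl and 188 and 51.7 after nitrate, and overlapped between treatments. Sugar starvation had 1 of 12, AT3G15450 (-0.39). No gene of these lists was called in shoots, with 0 lower and 0 higher in each. The lists of abscisic acid synthesis and breakdown, of its perception and of the ERF group had no tested gene that the probe table names. Genes of these lists may still have been measured by unlisted probe sets, the members among them included, which could not be assigned to any list.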

How the data were processed

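RNA from roots and shoots was hybridised to 8 one-colour ATH1 arrays, 2 in each of 4 groups. The deposited values are linear signal intensities for 22810 probe sets, made with MAS5 and GCOS per the submitters' processing notes (versions and scaling target not given in the sources used here). The 64 control probe sets were left out. Values were taken as log2(signal + 16), with no further normalization, and probe sets with a mean signal above the 40th percentile (33.3) were tested.

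Group means were fitted over all 8 arrays with limma 3.58.1 in R 4.3.3 (empirical Bayes with a trend), and p-values were adjusted by Benjamini-Hochberg over the 13647 tested probe sets (two-sided, threshold 0.05). Replicate differences were fitted with a term for the number within each organ. The scripts were tested on simulated data. Members and lists were chosen with earlier results of these data known, and the low oxygen list and families were written after the values were seen.

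Named genes are members that match 1 gene in the platform's probe table. They are the 12 largest root falls, the 5 lowest and 5 highest shoot changes, the 3 highest and 3 lowest organ differences and replicate differences, and transcription factors. They also include the neighbours of the threshold and up to 3 genes of each list. Transcription factors were picked from general knowledge, since the tables hold symbols only. Other family members and 253140_at were named after their values were seen. Promoter motifs were not analysed here. The alternatives were other pseudocounts, filters, thresholds, quantile normalization, fits without a trend or within an organ, replicate blocks and each array left out.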

Additional observations from a re-analysis of the deposited data

Results flagged for a closer look

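In 4 members the shoot arrays moved opposite to the root arrays, with both nitrate arrays above both KCl arrays, while in roots every nitrate array lay below. The difference between the organs was not tested, because the root contrast chose the members. The shoot log2 changes were 0.52 for AT5G05890, 0.36 for AT3G61080, 0.074 for the unlisted probe set 257105_at and 0.46 for AT2G33710. The shoot signals of AT2G33710 were 16.7 and 27.6 in KCl and 44.4 and 28.9 after nitrate, so that its lower nitrate array barely exceeded its higher KCl array. Those of AT5G05890 were 32.3 and 34.5 in KCl and 60.9 and 49.3 after nitrate, and those of AT3G61080 were 66.7 and 75.7 in KCl and 112 and 81.0 after nitrate. None passed the shoot test (limma), and 4 is 2.74% of the members, where 8.91% of tested probe sets had both nitrate arrays above.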

How the results depend on the processing

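The number of members depends on the rule's settings: 324 with a pseudocount of 1, 46 with 64, 97 with the filter at the 60th percentile, 386 with a threshold of -0.5 and 35 with -1.0. Quantile normalization gave 126. Among the 83 members that match 1 gene, the median shoot change was -0.15 and 60 changes were negative. Of these members 29 were higher in roots, 25 higher in shoots and 34 called for the replicate number. No share of the tested probe sets that match 1 gene stands beside these counts, so nothing is read from them. The median shoot change was -0.22 with a pseudocount of 1 and -0.11 with 64, and ranged from -0.30 to -0.043 with each array left out in turn. With the filter at the 60th percentile 36 of 97 members were higher in roots. This count too stands without a share of the probe sets tested at that filter. Organ levels were also counted by 2 alternatives chosen after seeing the data. Of the 98 members with a mean root KCl signal of at least 100, 49 were higher in roots (50.0%), where 40.7% of tested probe sets of that signal were. Higher in shoots were 19 (19.4%), where 11.6% were. Of the 111 above the filter value in both organs, 41 were higher in roots and 29 in shoots, with the shares given above. With each shoot array left out in turn the shoot change ranged from -0.12 to 1.08 for AT5G60680 and from -0.065 to 1.27 for AT1G23390, negative without the first nitrate array. No member was called in shoots under any alternative run.

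Arrays of the same number deviated together within each organ, with correlations of 0.44 in roots and 0.67 in shoots across probe sets, but an organ holds only 2 pairs and what the number stands for is not stated. With the replicate block within each organ 0 members were called in shoots, 69 were higher in roots (47.3%, where 36.9% of tested probe sets were) and 56 higher in shoots (38.4%, where 29.4% were), and the lowest adjusted p among the named members in shoots was 0.056, for AT3G22970. With a block shared by both organs 10 members were called for the replicate number, in place of 55. With 2 arrays in a group, signals near the filter value are measured least well.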
